A study of Homo sapiens with 24 samples.

Results

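The 6 libraries described here are the MV3 experiment of a series of 24 total RNA libraries: 3 from MV3 cells given control siRNAs (siC) and 3 from MV3 cells given siRNAs against IGF2BP1 (siI1). They were chosen by their labelled cell line and siRNA, and no measured value was used. MV3 is an established cell line from a human melanoma, which the study lists as amelanotic, that is without pigment. Both groups were untreated apart from transfection and were harvested 72 hours later. The control siRNA carries the sequence of a worm microRNA (CEL-miR-239b), and siI1 is a pool of siRNAs designed to spare the paralogues IGF2BP2 and IGF2BP3. All values come from 1 cell line and 1 siRNA pool, so effects of the pool other than the loss of IGF2BP1 cannot be told apart from it. The same siRNAs were given to A549 (lung), ES2 (ovary) and PANC1 (pancreas) carcinoma cells, the last harvested at 96 hours, and these 3 lines serve only to show where MV3 differs.

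IGF2BP1 is an RNA-binding protein made in the embryo, mostly silent in adult tissue and made again in many tumours, among them melanomas. It sits on messenger RNAs, largely in their 3′ untranslated regions, where it shields them from decay or from microRNAs and steers their transport and translation. Messenger RNAs known from earlier work as its targets include those of the transcription factors MYC and SRF and of E2F family members, which drive growth, the actin cytoskeleton and the cell cycle.

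Levels are given in FPKM, fragments scaled to gene length and library size, and every fold change is a difference of siI1 minus siC on the log2(FPKM + 0.5) scale, which understates the change of genes near 0. Values after ± are standard errors from limma, with n = 3 libraries a group. A gene is called lower or higher where limma gave an adjusted p under 0.05 over all 16380 genes that averaged 0.5 FPKM or more. Several defining markers of pigment cells were absent from these libraries, while others were present. GPR143, a receptor of the melanosome, measured 21.6, 20.7 and 20.4 FPKM in siC and 19.6, 18.4 and 18.8 FPKM in siI1. PAX3, a transcription factor of the pigment cell lineage, stood at 5.94, 5.84 and 5.38 FPKM in siC and 5.85, 5.61 and 5.31 FPKM in siI1 and was not called. No read fell on SOX10, TYR, DCT or S100B, PMEL and MLANA stayed under 0.1 FPKM, and MITF, the master regulator of pigment cells, lay between 0.166 and 0.337 FPKM, under the level that was tested. Of the 30 genes of melanocyte lineage and pigmentation 8 were tested, and RAB38 (-0.74), BACE2 (-0.51) and GPR143 (-0.14) were called lower and TFAP2A (0.28) higher, with a median of -0.14.

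Between 15572492 and 16077195 reads lay in genes in the siC libraries and between 19238739 and 20082702 in the siI1 libraries, so every siI1 library was deeper. Genes with at least 1 read numbered 23889 to 24217 in siC and 25817 to 26144 in siI1, and 23781 to 24171 against 25040 to 25426 once all libraries were thinned to equal reads. RN7SL2, the RNA of the signal recognition particle, made up 43.4 to 44.2% of the summed FPKM in siC and 47.3 to 48.5% in siI1, and its part in the results was not tested beyond scaling every library to 1 common sum.

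The targeted gene fell in all 3 knockdown libraries. Positions are hg38, with the gene bounds of GENCODE. IGF2BP1 (chr17:48997385-49056145, plus strand) measured 9.09, 9.64 and 9.06 FPKM in siC and 3.02, 2.95 and 2.77 FPKM in siI1, a change of -1.52 ± 0.05, adjusted p = 5.93e-05, and the groups did not overlap. IGF2BP3, its paralogue, measured 20.1, 21.1 and 21.2 FPKM in siC and 19.6, 18.2 and 18.7 FPKM in siI1 and was called lower by a small margin (-0.14 ± 0.04, adjusted p = 0.037), a call lost under 7 of the alternatives. IGF2BP2 measured 38.8, 37.3 and 35.7 FPKM in siC and 41.0, 40.5 and 38.5 FPKM in siI1, with overlapping groups, and did not pass the test (0.10 ± 0.04, adjusted p = 0.11). The fall of IGF2BP1 in MV3 differed from the mean fall in the other lines by 0.05 ± 0.06 (adjusted p = 0.663), which did not pass the test either.

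Of 10960 protein-coding genes tested, 2941 (26.8%) were called lower and 2147 (19.6%) higher in siI1. Most of these changes were small. The median size was 0.34 among the genes called lower and 0.37 among those called higher, and the siC and siI1 libraries did not overlap in 62.8% of all protein-coding genes tested. All 2941 and 2147 called genes were among these, so a lack of overlap adds nothing to a call. Only 38 genes fell and 76 rose by at least 1 on the log2 scale, and the median over all protein-coding genes was -0.02. The shares of 26.8% and 19.6% are the background for the counts of calls within MV3 in every gene list below. They are not matched to the level of a list's members, and the part of the level in the list counts was not tested. The direction went with the level of the gene: in the fifth of genes with the lowest mean level, 5.61% were called lower and 22.4% higher, and in the fifth with the highest level the shares were 44.4% and 15.1%. The plot of level against change shows this tilt.

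**Figure D1:**
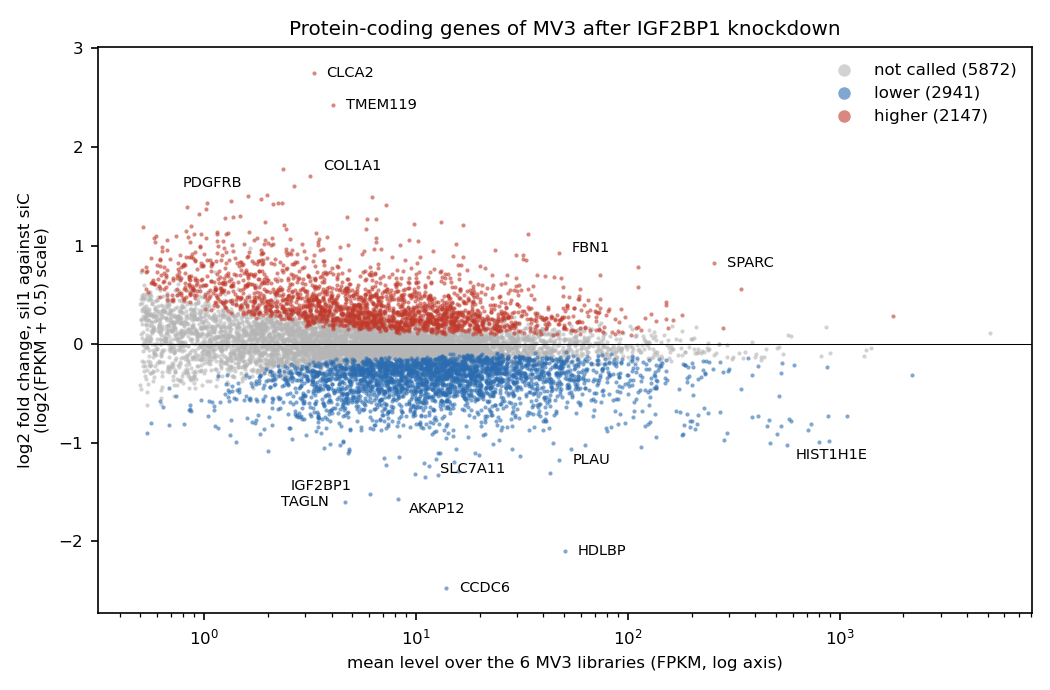
Each point is 1 of 10960 protein-coding genes, placed by its mean level over the 6 MV3 libraries (FPKM, log axis) and its log2 fold change in siI1 against siC; blue points were called lower, red points higher and grey points not. CCDC6 at -2.47 and HDLBP at -2.100 have the lowest fold changes; CLCA2 at 2.75 and TMEM119 at 2.43 are among the highest.

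The largest falls hit genes of quite different work. CCDC6 (chr10:59788747-59906556, minus strand), a coiled-coil protein linked to the DNA damage response, measured 23.8, 24.1 and 23.99 FPKM in siC and 3.98, 4.08 and 3.70 FPKM in siI1. HDLBP (chr2:241227264-241317061, minus strand), the RNA-binding protein vigilin, measured 83.9, 85.3 and 78.1 FPKM in siC and 18.3, 19.2 and 18.98 FPKM in siI1. Both were lower in every knockdown library than in any control, with log2 fold changes of -2.47 and -2.100. TAGLN, the actin-binding protein transgelin, measured 7.80, 7.35 and 6.50 FPKM in siC and 2.29, 1.86 and 1.99 FPKM in siI1 (-1.60 ± 0.09, adjusted p = 0.000173). AKAP12 (chr6:151239967-151358559, plus strand), a scaffold that holds protein kinases A and C, measured 12.01, 13.5 and 12.3 FPKM in siC and 3.83, 4.09 and 3.78 FPKM in siI1 (-1.57 ± 0.06, adjusted p = 5.93e-05). SLCO4A1, an organic anion transporter, measured 16.5, 16.3 and 15.3 FPKM in siC and 5.57, 6.28 and 6.12 FPKM in siI1 (-1.35 ± 0.06, adjusted p = 8.09e-05). In none of these did the groups overlap, as the choice of genes required, and the knockdown libraries lay close together.

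GPD2, the mitochondrial glycerol-3-phosphate dehydrogenase, measured 17.8, 18.4 and 18.7 FPKM in siC and 6.63, 6.97 and 7.40 FPKM in siI1 (-1.33). NCR3LG1, the B7-H6 ligand that natural killer cells see through NKp30, measured 13.6, 15.4 and 14.2 FPKM in siC and 5.11, 5.56 and 5.67 FPKM in siI1 (-1.32). CDCA4, a cell division cycle-associated protein, measured 64.0, 60.9 and 59.7 FPKM in siC and 24.3, 24.3 and 25.3 FPKM in siI1 (-1.303). The remaining members of the 12 largest falls were IGF2BP1 and SLC7A11, CBX6, a Polycomb chromobox protein (-1.29), and BRI3BP (-1.23). GPD2, CDCA4, CBX6 and BRI3BP were called lower in each of the other 3 lines too, and none of the 4 passed the test of a difference between MV3 and the mean of these lines. NCR3LG1 fell more in MV3 than in each other line, with a difference from their mean of -0.70 ± 0.13 (adjusted p = 0.0017, and 0.116 after rescaling).

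Apart from CA9, the 12 largest rises were of genes that stood under 2 FPKM in every control. CLCA2 (chr1:86424171-86456553, plus strand), a secreted regulator of chloride channels, measured 0.502, 0.397 and 0.521 FPKM in siC and 7.31, 5.81 and 5.22 FPKM in siI1. TMEM119 (chr12:108589851-108598320, minus strand), a membrane protein known from bone-forming cells and microglia, measured 0.833, 0.860 and 1.11 FPKM in siC and 7.07, 7.29 and 7.19 FPKM in siI1. Both were higher in every knockdown library than in any control, with log2 fold changes of 2.75 and 2.43. LRRC6, a protein needed to build motile cilia, measured 0.622, 0.873 and 0.889 FPKM in siC and 4.37, 3.57 and 3.89 FPKM in siI1 (1.78). COL1A1 (chr17:50184101-50201632, minus strand), the main chain of collagen I, measured 1.16, 1.299 and 1.21 FPKM in siC and 4.84, 5.13 and 5.41 FPKM in siI1 (1.71). ZSCAN31, a zinc finger protein, measured 1.22, 0.824 and 1.16 FPKM in siC and 4.54, 4.10 and 4.12 FPKM in siI1 (1.61). In these genes every knockdown library exceeded every control, as the choice of genes required.

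PDGFRB, the beta receptor for platelet-derived growth factor, measured 0.735, 0.751 and 0.887 FPKM in siC and 3.18, 3.10 and 3.23 FPKM in siI1 (1.51). TP53INP1, a protein of autophagy and cell death, measured 0.609, 0.562 and 0.624 FPKM in siC and 2.93, 2.62 and 2.32 FPKM in siI1 (1.504). CA9, a carbonic anhydrase of hypoxic cells, measured 2.86, 3.29 and 2.92 FPKM in siC and 9.18, 9.72 and 9.24 FPKM in siI1 (1.49). TH (1.48), the tyrosine hydroxylase of catecholamine synthesis, WISP1 (1.46), a matricellular protein, ROPN1L (1.44), a sperm flagellum protein, and CMKLR1 (1.43), the chemerin receptor, completed the 12, with no overlap of the groups. Of these 12 genes, CLCA2, TMEM119, TH, WISP1 and CMKLR1 were under 0.5 FPKM on average in all 3 other lines, so no comparison between lines could be made for them. ROPN1L had as few as 6 reads in a control library.

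**Figure D2:**
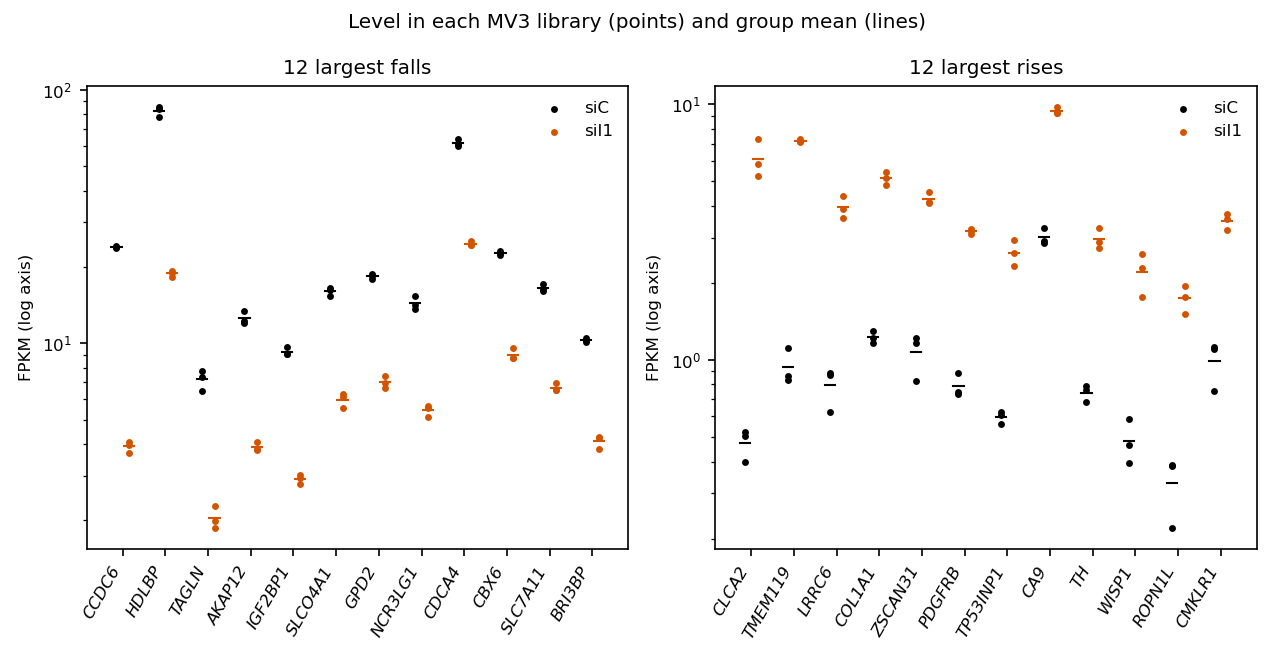
FPKM in each of the 3 siC libraries (black) and 3 siI1 libraries (orange) of MV3 for the 12 largest falls (left) and the 12 largest rises (right) among called genes averaging 1 FPKM or more; points are libraries, lines are group means, the axis is logarithmic. Only genes whose groups did not overlap were chosen, so the separation in all 24 genes follows from the choice. Of the genes that rose all but CA9 stayed under 2 FPKM in every siC library.

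To ask what was particular to MV3, the fold change of each gene in MV3 was set against its fold changes in A549, ES2 and PANC1. The 4 lines were normalised in separate tables, so only fold changes within a table were compared and never levels. Reads in genes numbered 3105215 to 4553326 in A549, 6421764 to 8419467 in ES2 and 6532175 to 8472851 in PANC1, fewer than in every MV3 library. In A549, 3 reads on a gene of 1 kilobase made 0.660 to 0.932 FPKM. A change may go uncalled in these lines for lack of reads, which was not tested. Of 9650 protein-coding genes averaging 0.5 FPKM or more in every line, 798 (8.27%) had a lower fold change in MV3 than the mean of the others and 595 (6.17%) a higher one. Both shares are the background for the list counts below against the mean of the other lines, before rescaling. Rescaled to the same sum, the libraries gave 54 and 969, and the median difference then moved up by 0.21. The MV3 median itself moved by -0.01. Before rescaling, the summed FPKM of PANC1 ran from 526337 to 756438 in siC and from 977547 to 1191710 in siI1. In A549, ES2 and MV3 the siC and siI1 ranges of this sum overlapped. RN7SL2 held 50.1 to 56.2% of it in PANC1 siC and 62.0 to 64.6% in PANC1 siI1. The part of PANC1 in these counts was not tested. The stricter test, a difference from each of the 3 lines in 1 direction, was passed by 102 genes (1.06%) on the lower side and by 62 (0.642%) on the higher side. After rescaling, 24 genes passed it on the higher side and 2 on the lower, CXCL1 (-0.85) and SQSTM1 (-0.70), so every other gene named here as lower than in each other line lost that status under this scaling. Of the 102, 81 were called lower within MV3 itself, and 15 were called higher in each of the other 3 lines. Of the 62, 53 were called higher in MV3 itself. A further 451 genes averaging 1 FPKM or more and called in MV3, 317 of them higher, were under the filter in another line and could not be compared.

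**Figure D3:**
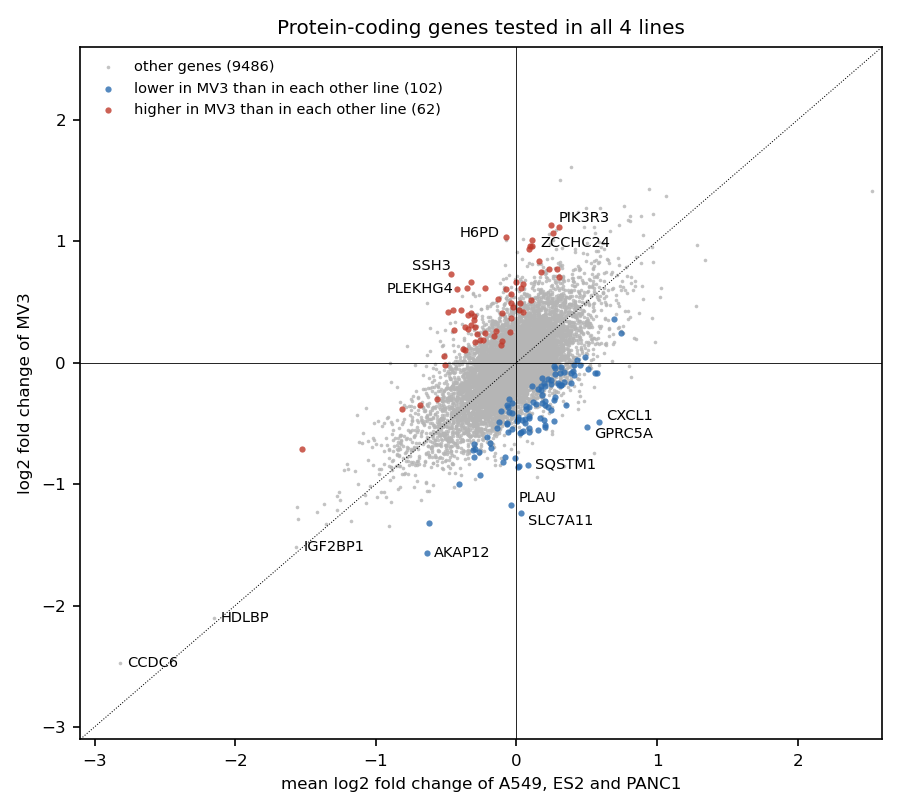
Each point is 1 of 9650 protein-coding genes, placed by the mean of its log2 fold changes in A549, ES2 and PANC1 and by its log2 fold change in MV3; the dotted line marks equal change, blue points were lower in MV3 than in each other line and red points higher. CCDC6, HDLBP and IGF2BP1 do not stand apart in that test, SLC7A11 and PLAU fell by over 1 in MV3 alone, and H6PD, PIK3R3 and ZCCHC24 rose by over 1 in MV3 alone.

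Among the genes that were lower than in each other line, the 8 furthest below their mean were SLC7A11, PLAU, CXCL1, GPRC5A, AKAP12, SQSTM1, CHAC2 and PIR. SLC7A11 (chr4:138164097-138242349, minus strand), the cystine importer that feeds glutathione synthesis, measured 16.02, 16.3 and 17.0 FPKM in siC and 6.94, 6.56 and 6.53 FPKM in siI1. Its change was -1.24 ± 0.04, adjusted p = 5.93e-05 in MV3, against changes of 0.65 in A549, -0.31 in ES2 and -0.24 in PANC1. The difference from their mean was -1.27 ± 0.11 (adjusted p = 4.88e-07), the largest among these genes. CHAC2, a glutathione-degrading enzyme, measured 7.29, 5.60 and 6.47 FPKM in siC and 3.58, 3.17 and 3.20 FPKM in siI1 and changed by 0.28 in A549, -0.10 in ES2 and -0.13 in PANC1, a difference of -0.87 ± 0.17 (adjusted p = 0.00243, and 0.0784 after rescaling).

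Most genes that the oxidant-sensing transcription factor NRF2 is known to switch on were lower too. NRF2 binds a short element, the antioxidant response element, whose core reads TGACNNNGC. Of 39 redox and NRF2 target genes, a list drawn up after the values of SLC7A11, PIR and SQSTM1 had been seen, 35 were tested, 24 were called lower and 3 higher, and their median was -0.31, against -0.02 over all protein-coding genes. Since the list was chosen with these values known, its count is no independent evidence of a direction. Against the mean of the other lines 20 of 33 were lower and none higher, with a median difference of -0.41, and 7 were lower than each line. After rescaling to the same sum 7 of 33 were lower and none was higher. SQSTM1 (chr5:179806398-179838078, plus strand), the autophagy receptor p62, measured 109, 109.8 and 102 FPKM in siC and 56.3, 62.6 and 59.6 FPKM in siI1 (-0.84 ± 0.05, adjusted p = 0.000188), while it changed by 0.25 in A549, -0.33 in ES2 and 0.33 in PANC1.

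PIR (chrX:15384799-15493564, minus strand), the iron-binding nuclear protein pirin, measured 3.49, 3.40 and 3.25 FPKM in siC and 1.51, 1.49 and 1.99 FPKM in siI1, with a difference from the other lines of -0.87 ± 0.14 (adjusted p = 0.00066). TXNRD1 (chr12:104215779-104350307, plus strand), thioredoxin reductase, measured 134, 135 and 129 FPKM in siC and 79.4, 79.4 and 78.7 FPKM in siI1 (-0.74 ± 0.03, adjusted p = 7.12e-05) and was called lower in every other line too. GCLM (chr1:93885199-93909456, minus strand), the regulatory subunit of the enzyme that starts glutathione synthesis, measured 12.7, 11.1 and 11.3 FPKM in siC and 7.16, 7.69 and 6.52 FPKM in siI1 (-0.68 ± 0.08, adjusted p = 0.00114). Its catalytic partner GCLC changed by -0.42. Both glutathione genes fell, without overlap of the groups. HMOX1, heme oxygenase, measured 5.69, 6.10 and 5.18 FPKM in siC and 3.04, 3.59 and 2.54 FPKM in siI1 (-0.80), and SRXN1, sulfiredoxin, changed by -0.80.

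PGD, which makes NADPH in the pentose phosphate pathway, measured 106, 103 and 95.7 FPKM in siC and 65.8, 69.1 and 69.9 FPKM in siI1 and differed from the other lines by -0.66 ± 0.07 (adjusted p = 5.67e-06). It fell in MV3 and was called lower in no other line. TALDO1 (-0.37) and TKT (-0.18), of the branch without NADPH, were called lower too. PRDX1, a peroxiredoxin, changed by -0.52 and FTL, the ferritin light chain, by -0.31, the latter against 0.32 in A549, 0.12 in ES2 and 0.37 in PANC1. NQO1, a quinone reductase and one of the best known NRF2 targets, went the other way, at 278, 267 and 249.2 FPKM in siC and 292, 303 and 295 FPKM in siI1 (0.16 ± 0.05, adjusted p = 0.0404). AKR1B10 (0.78) and ABCC3 (0.65) also rose. NFE2L2, the gene of NRF2 itself, changed by -0.12 ± 0.03, adjusted p = 0.0387, and KEAP1, its inhibitor, by -0.31 ± 0.05, adjusted p = 0.00642.

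Of the 9022 tested genes with a promoter in the RefSeq table (250 bases before to 50 after the start, hg38), 15.3% held the core TGACNNNGC on either strand, among genes called lower 15.9% and among genes called higher 14.6%. In the redox list 6 of 24 promoters (25%) held it, fewer than in the S phase list, with 10 of 32 (31.2%). The 30 bases around it are shown for 3 members with deep falls among those that held it, not all chromosomes being considered. They are given in the direction of the gene, with the core in capitals, so that the sites can be compared.
PIR: gccgcgaagcGCTGAGTCAcggtgaggcta
TXNRD1: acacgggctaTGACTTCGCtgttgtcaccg
GCLM: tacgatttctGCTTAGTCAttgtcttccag
In hg38 these windows are PIR, chrX:15493288-15493317 on the minus strand with the match at 27, TXNRD1, chr12:104215670-104215699 on the plus strand with the match at -99 and GCLM, chr1:93909445-93909474 on the minus strand with the match at -34, counted from the first transcribed base as 1. In PIR and GCLM the capitals are the core read on the opposite strand. A match is only a match of letters, and binding was not measured.

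**Figure D4:**
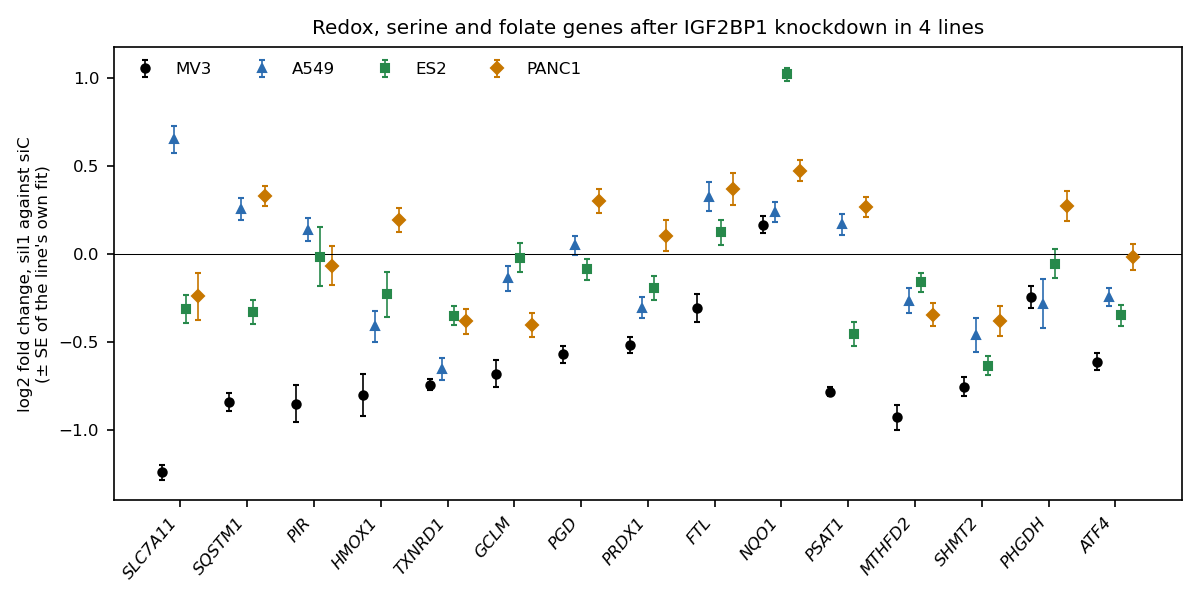
Log2 fold change of siI1 against siC (points) with its standard error (bars) from each line's own fit, for 15 redox, serine, folate and ATF4 genes in MV3 (black), A549 (blue), ES2 (green) and PANC1 (orange). MV3 has the lowest point in every gene but PHGDH; NQO1 rose in all 4 lines. The 15 genes were picked after values had been seen, so this pattern is no evidence about their lists. Of the 33 redox and NRF2 genes tested in all lines, 7 were lower in MV3 than in each other line. AKR1B10 and ABCC3, which rose in MV3, are not drawn.

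Of 13 tested genes of serine, glycine and folate metabolism, a list also drawn up after values had been seen, 8 were called lower and 2 higher, with a median of -0.35. PSAT1 (chr9:78297125-78330093, plus strand), the aminotransferase of serine synthesis, measured 52.6, 51.8 and 52.7 FPKM in siC and 31.0, 29.8 and 29.9 FPKM in siI1, and differed from the other lines by -0.78 ± 0.06 (adjusted p = 4.02e-07). MTHFD2, the mitochondrial folate enzyme of proliferating cells, measured 19.3, 19.6 and 20.1 FPKM in siC and 11.3, 9.21 and 9.92 FPKM in siI1 and differed by -0.67 ± 0.08 (adjusted p = 2.22e-05). SHMT2, its neighbour in the pathway, changed by -0.75 ± 0.05, adjusted p = 0.000244, while PHGDH changed by only -0.25 and PSPH by -0.07 ± 0.06, adjusted p = 0.416, which did not pass the test. MTHFD2L (0.22), another folate enzyme, was among those that rose.

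ATF4, the transcription factor that is known to drive several of these genes, measured 77.1, 71.2 and 68.9 FPKM in siC and 46.0, 46.8 and 48.5 FPKM in siI1 (-0.61 ± 0.05, adjusted p = 0.000359) and differed from the mean of the other lines by -0.41 ± 0.07 (adjusted p = 0.000696, and 0.277 after rescaling). Of 34 genes of the unfolded protein and ATF4 response, 12 were called lower and 2 higher, with a median of -0.13. Among them XBP1 changed by -0.56, ASNS by -0.39 and CHAC1 by -0.54. Of 170 solute carriers 55 were called lower and 28 higher (32.4% and 16.5%, against 26.8% and 19.6% over all protein-coding genes), with a median of -0.09. The largest falls besides SLC7A11 were those of SLC39A14 (-1.17) and SLC39A8 (-0.99), importers of zinc, iron and manganese, SLC6A15 (-1.08), a transporter of neutral amino acids, SLC17A5 (-1.06), the lysosomal sialic acid exporter, and SLC35D1 (-1.01), a nucleotide sugar transporter. SLC7A5, the leucine importer, measured 34.6, 33.4 and 30.3 FPKM in siC and 16.6, 17.2 and 15.7 FPKM in siI1 (-0.97) and its partner chain SLC3A2 changed by -0.56. SLC39A14 and SLC35D1 fell in each of the other lines as well.

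PLAU and CXCL1, both secreted, came after SLC7A11 among the genes lower than in each other line. PLAU (chr10:73909177-73917496, plus strand), the urokinase that activates plasminogen at the cell surface, measured 63.8, 67.8 and 66.7 FPKM in siC and 29.0, 28.7 and 29.4 FPKM in siI1. The change was -1.17 ± 0.03, adjusted p = 4.47e-05 in MV3 and 0.04 in A549, -0.03 in ES2 and -0.12 in PANC1, and the difference was -1.137 ± 0.15 (adjusted p = 7.35e-05). PLAUR, the receptor of urokinase, changed by -0.27. The urokinase inhibitors SERPINB2 (-0.97) and SERPINE2 (-0.52) fell as well. Of 27 extracellular proteases and inhibitors tested, 9 were called lower and 9 higher, with a median of -0.02. MMP3, stromelysin, fell (-0.54), while CTSK, a collagen-cleaving cathepsin, was higher, at 1.02, 0.845 and 1.48 FPKM in siC and 2.72, 3.01 and 2.46 FPKM in siI1 (1.01), and the membrane proteases ADAM12 (0.82) and ADAM19 (0.63) rose too.

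CXCL1, a chemokine that draws neutrophils, measured 26.2, 26.9 and 27.4 FPKM in siC and 18.2, 20.8 and 18.2 FPKM in siI1. It was called lower in MV3 (-0.49 ± 0.06, adjusted p = 0.00137), changed by 0.18 in A549, 0.32 in ES2 and 1.25 in PANC1, and differed by -1.07 ± 0.07 (adjusted p = 5.51e-08). CXCL5, of the same family, measured 18.4, 18.4 and 17.2 FPKM in siC and 7.57, 8.79 and 7.93 FPKM in siI1 (-1.11) and could not be compared with PANC1. Of 29 genes of the NF-kB and cytokine list 11 were called lower and 2 higher, with a median of -0.18. CXCL8 (-0.65) and CXCL2 (-0.38) were lower, as were ICAM1, an adhesion molecule for leukocytes (-0.43), and BIRC3, an inhibitor of apoptosis (-0.73). TRAF1 (0.55) and TNFAIP2 (0.31) rose. GPRC5A, an orphan receptor induced by retinoic acid, measured 20.5, 19.6 and 20.3 FPKM in siC and 13.4, 14.3 and 13.7 FPKM in siI1 in MV3, and was called higher in A549 and ES2, at 0.60 in A549, 0.90 in ES2 and 0.00 in PANC1.

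Genes that report the activity of the kinase ERK, the end of the RAS and RAF cascade on which most melanomas depend, were mostly lower. Of 26 tested, 19 were called lower and only EPHA4, an ephrin receptor, was called higher (0.55), with a median of -0.25. The median of the list was 0.26 in A549, -0.45 in ES2 and -0.05 in PANC1, so it was lower in ES2 than in MV3. FOSL1, the AP-1 member of invasive melanoma cells, measured 86.4, 90.5 and 80.5 FPKM in siC and 48.2, 55.1 and 51.8 FPKM in siI1 (-0.73 ± 0.06, adjusted p = 0.000486). DUSP5, a nuclear phosphatase of ERK, changed by -0.69, DUSP4 by -0.48 and DUSP6, the cytoplasmic one, by -0.15. The receptor ligands HBEGF (-0.59), EREG (-0.45) and AREG (-0.66) were lower too, AREG on 10 to 34 reads a library. MYC measured 18.6, 18.7 and 17.7 FPKM in siC and 12.2, 13.5 and 13.5 FPKM in siI1 (-0.48 ± 0.05, adjusted p = 0.000995), against 0.26 in A549, -0.04 in ES2 and 0.37 in PANC1. SPRY2, a feedback inhibitor, did not pass the test (-0.05 ± 0.07, adjusted p = 0.575). Against the mean of the other lines 6 of 21 were lower and 1 was higher, SPRY2, and after rescaling to the same sum 1 of 22 was lower. The 6 fell to 3 with the replicate block, and to 3 without siC replicate 1 or 2 or siI1 replicate 1 or 2, and 4 without siI1 replicate 3.

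The core genes of the cascade moved in both directions. Of 32 RAS, RAF and PI3K genes 12 were called lower and 8 higher, with a median of -0.08. MAP2K2, one of the kinases that activate ERK, measured 37.3, 36.2 and 32.8 FPKM in siC and 20.3, 23.3 and 22.3 FPKM in siI1 (-0.68), and NRAS changed by -0.30. BRAF did not pass the test (-0.11 ± 0.04, adjusted p = 0.0553), although its groups did not overlap. PIK3R1, the regulatory subunit of PI3 kinase, rose, with 1.65, 1.76 and 1.93 FPKM in siC and 2.80, 2.88 and 2.91 FPKM in siI1 and lay above each other line, by 0.60 ± 0.09 (adjusted p = 0.000168) against their mean. The 8 higher calls fell to 3 after rescaling to the same sum. Of 10 cancer-testis and melanoma antigens tested, PRAME (0.29) and CSAG2 (0.49) were called higher and none lower, with a median of 0.01 that turned to -0.00 after rescaling.

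The genes of the cell cycle were lower almost throughout. Of 43 S phase genes 40 were called lower and none higher, with a median of -0.49, and of 55 G2/M genes 51 were called lower and none higher, with a median of -0.42. In bulk RNA, fewer cells in a phase and less RNA of these genes per cell cannot be told apart. Against the mean of the other lines, 16 of 43 S phase genes and 8 of 55 G2/M genes were lower and none was higher, and after rescaling to the same sum 2 of 43 and 1 of 55 were lower and 1 of the 55 higher. The S phase median was -0.13 in A549, -0.09 in ES2 and -0.52 in PANC1. The G2/M median was -0.19 in A549, -0.23 in ES2 and -0.60 in PANC1. Both medians were thus lower in PANC1 than in MV3. DTL (chr1:212035553-212107400, plus strand), which marks replication proteins for destruction, measured 18.6, 18.5 and 16.9 FPKM in siC and 10.2, 10.0 and 9.82 FPKM in siI1 (-0.81 ± 0.05, adjusted p = 0.000167) and was lower than in each other line, at -0.72 ± 0.08 (adjusted p = 9.68e-06) from their mean. UHRF1, which keeps up DNA methylation, measured 58.8, 57.7 and 47.9 FPKM in siC and 29.2, 30.8 and 29.95 FPKM in siI1 (-0.85) and differed from the other lines by 0.00 ± 0.12 (adjusted p = 0.998), which did not pass the test.

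RRM2, the small subunit of ribonucleotide reductase, measured 52.6, 49.4 and 48.7 FPKM in siC and 28.9, 28.5 and 29.5 FPKM in siI1 (-0.78). MCM2, of the replicative helicase, measured 38.0, 37.4 and 34.8 FPKM in siC and 21.2, 21.5 and 22.8 FPKM in siI1 (-0.74), and FEN1, the flap nuclease, changed by -0.70. In mitosis ANP32E, a histone chaperone, measured 41.8, 42.8 and 43.4 FPKM in siC and 19.4, 19.02 and 19.2 FPKM in siI1 and had the deepest fall of its list (-1.13 ± 0.03, adjusted p = 3.54e-05). HJURP (chr2:233833416-233854566, minus strand), which loads the centromeric histone, measured 43.9, 40.8 and 41.3 FPKM in siC and 25.3, 26.3 and 26.0 FPKM in siI1 (-0.69), PLK1, the polo kinase, changed by -0.64 and CDCA8, borealin of the Aurora B complex, by -0.63. Of 31 G1 regulators and E2F factors 23 were called lower and 3 higher, with a median of -0.39. CDC25A, the phosphatase that opens S phase, measured 18.8, 19.4 and 17.1 FPKM in siC and 9.81, 8.72 and 9.20 FPKM in siI1 (-0.96), and E2F1 (-0.87), E2F2 (-0.76) and MYBL2 (-0.60), which switch on these genes, were lower. CDKN1A, the inhibitor p21, was lower, at 2.09, 2.57 and 2.47 FPKM in siC and 1.40, 1.34 and 1.55 FPKM in siI1 (-0.57 ± 0.10, adjusted p = 0.00582). The 3 that rose were TFDP2 (0.34), an E2F partner, and the inhibitors CDKN2A (0.20) and CDKN1B (0.17).

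Promoters of such genes are known to carry the E2F site (TTTCGCGC or TTTGGCGC) for S phase and the CHR element (TTTGAA) for mitosis, and both were looked for on both strands. The E2F letters stood in 3.95% of promoters of genes called lower, 1.8% of genes called higher and 2.32% of all 9022, and in 9 of 32 promoters (28.1%) of the S phase list. The CHR letters stood in 12.6%, 9.17% and 9.75%, and in 30 of 46 promoters (65.2%) of the G2/M list. The 30 bases around the match are printed for 3 members of each list with deep falls among those that held it, E2F first. Not all chromosomes were considered in this choice.
DTL: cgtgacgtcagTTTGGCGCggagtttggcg
MCM2: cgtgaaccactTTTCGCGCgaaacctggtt
EXO1: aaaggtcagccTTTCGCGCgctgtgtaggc
HJURP: gacgcaaatttgTTTGAAaggcccaatcag
PLK1: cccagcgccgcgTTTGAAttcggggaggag
CDCA8: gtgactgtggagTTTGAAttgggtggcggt
In hg38 these windows are DTL, chr1:212035729-212035758 on the plus strand with the match at -8, MCM2, chr3:127598402-127598431 on the plus strand with the match at 3, EXO1, chr1:241848197-241848226 on the plus strand with the match at 5, HJURP, chr2:233854629-233854658 on the minus strand with the match at -111, PLK1, chr16:23678848-23678877 on the plus strand with the match at -29 and CDCA8, chr1:37692481-37692510 on the plus strand with the match at -23, counted from the first transcribed base as 1. Of the other motifs looked for, again on both strands, the CCAAT box (CCAAT) stood in 40.4% of promoters of genes called lower, 34.2% of genes called higher and 37.4% of all, the E-box CACGTG in 12.9%, 8.88% and 10.5%, and the E-box CATGTG, which MITF binds, in 6.78%, 5.92% and 6.32%.

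Histone genes of the replication-dependent kind, whose messenger RNAs end in a stem-loop and rise in S phase, had the lowest median of all lists. Of 60 tested, 54 were called lower and 2 higher, with a median of -0.77, and the summed level of the list lay between 17650 and 19280 FPKM in siC and between 9873 and 11030 FPKM in siI1. HIST1H1E, a linker histone, measured 788, 764 and 714 FPKM in siC and 335, 378 and 401 FPKM in siI1 (-1.03 ± 0.08, adjusted p = 0.000308), and HIST1H2AL changed by -1.06. HIST1H1T, the linker histone of the testis, rose (1.19) on 0 to 15 reads a library, and HIST1H3E rose by 0.38. Members of this family are near copies of each other, so the share of reads given to each is uncertain. Against the mean of the other lines 4 of 51 were lower and none higher, beside 8.27% lower and 6.17% higher over all protein-coding genes. After rescaling to the same sum none of the histone genes was lower and 5 were higher. The histone median was -0.63 in A549, -0.96 in ES2 and -0.48 in PANC1, so it was lower in ES2 than in MV3.

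Genes of the actin cytoskeleton under the transcription factor SRF were lower in part. SRF (chr6:43171269-43181506, plus strand) measured 16.4, 16.5 and 15.4 FPKM in siC and 7.80, 8.75 and 8.69 FPKM in siI1 (-0.90 ± 0.06, adjusted p = 0.00019) and was called lower in each other line, at -1.53 in A549, -1.23 in ES2 and -0.68 in PANC1. Of 39 genes of the SRF and actin list 18 were called lower and 9 higher, with a median of -0.16. Besides TAGLN, the heavy chain of nonmuscle myosin MYH9 measured 236, 241 and 227 FPKM in siC and 126, 137 and 134 FPKM in siI1 (-0.82), and ACTN1, alpha-actinin, changed by -0.40 and ACTB by -0.23. TPM2, beta-tropomyosin, rose instead, at 2.102, 2.08 and 1.61 FPKM in siC and 3.48, 3.51 and 3.08 FPKM in siI1 (0.67). Among 31 YAP and TEAD genes 8 (25.8%) were called lower and 9 (29.0%) higher, with a median of -0.05. YAP1 itself measured 43.6, 43.5 and 42.6 FPKM in siC and 28.0, 28.4 and 26.2 FPKM in siI1 (-0.64), a smaller fall than in the mean of the other lines, with a difference of 0.42 ± 0.07 (adjusted p = 0.000628), while CYR61, a matricellular target, changed by -0.51 and was lower than in each other line, by -0.71 ± 0.13 (adjusted p = 0.00114) against their mean.

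SRF binds the CArG box, which stood in 7 of 36 promoters (19.4%) of the SRF list and in 0.975% of all promoters. It is shown for SRF itself, with 2 boxes, and for AKAP12, the deepest fall in MV3 among genes below each other line, with the boxes in capitals.
SRF: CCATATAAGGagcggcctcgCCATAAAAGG
AKAP12: cgtgaggtgcCCAAATATGGtcggactcag
In hg38 these windows are SRF, chr6:43171239-43171268 on the plus strand with the match at -30 and AKAP12, chr6:151239876-151239905 on the plus strand with the match at -81, counted from the first transcribed base as 1. AKAP12 was lower in MV3 than in each other line, at -0.69 in A549, -1.12 in ES2 and -0.10 in PANC1, by -0.93 ± 0.07 (adjusted p = 2.86e-07) against their mean.

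Among the lists plotted, those with at least 8 members tested, matrix genes had the largest share of rises. Of 33 extracellular matrix genes tested, 22 were called higher and 4 lower, with a median of 0.28. FBN1 (chr15:48408313-48645721, minus strand), the fibrillin of elastic fibres, measured 31.7, 32.9 and 33.4 FPKM in siC and 62.3, 62.4 and 62.2 FPKM in siI1 (0.92 ± 0.03, adjusted p = 5.21e-05). SPARC (chr5:151661096-151686975, minus strand), a collagen-binding matricellular protein, measured 187, 192 and 177 FPKM in siC and 325, 332 and 327 FPKM in siI1 (0.82 ± 0.04, adjusted p = 0.000109). LOXL1, which crosslinks elastin, changed by 0.89, COL5A1 by 0.75, LAMA4, a laminin chain, by 0.68 and COL16A1 by 0.66. Of the 4 that fell, POSTN, periostin, measured 19.1, 17.8 and 18.95 FPKM in siC and 10.5, 8.84 and 9.84 FPKM in siI1 (-0.91 ± 0.07, adjusted p = 0.000283). The others were LOX (-0.32), which crosslinks collagen, NID1 (-0.30), nidogen of basement membranes, and FN1 (-0.10), fibronectin. TNC, tenascin, did not pass the test (0.03 ± 0.04, adjusted p = 0.596). Of the 17 matrix genes tested in all lines 7 rose more than in the mean of the others and none less, SPARC with 0.73 ± 0.13 (adjusted p = 0.00121). ES2 moved with MV3 in several of them, COL1A1 by 2.40 and COL5A1 by 2.54, and SPARC by 1.67, and none of the 17 passed against each line.

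Both receptors for platelet-derived growth factor rose and the growth factor gene PDGFA fell. PDGFRA measured 1.20, 1.04 and 1.145 FPKM in siC and 2.75, 2.49 and 2.50 FPKM in siI1 (0.92 ± 0.09, adjusted p = 0.00062), beside the rise of PDGFRB given above, and PDGFA changed by -0.54 and PDGFC by -0.22. Of 29 receptor tyrosine kinases and ligands 10 were called lower and 9 higher, with a median of 0.04. AXL, the receptor of dedifferentiated melanoma cells, stood high and rose further, at 284, 279 and 271 FPKM in siC and 388, 419 and 419 FPKM in siI1 (0.56), and MET, the receptor for hepatocyte growth factor, fell, with 42.2, 41.8 and 41.7 FPKM in siC and 30.2, 29.6 and 28.5 FPKM in siI1 (-0.50). EGFR did not pass the test (0.04 ± 0.03, adjusted p = 0.423). FGF2, a growth factor that melanoma cells make for themselves, measured 13.9, 13.9 and 14.4 FPKM in siC and 11.1, 11.1 and 10.6 FPKM in siI1 (-0.35), against 0.69 in A549, 0.35 in ES2 and 0.02 in PANC1, and was lower than in each other line, by -0.70 ± 0.08 (adjusted p = 9.49e-06) against their mean. Of 22 genes of the dedifferentiated melanoma state 7 were called lower and 5 higher, with a median of 0.00 that turned to -0.01 after rescaling to the same sum.

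Of 25 integrins and adhesion receptors 9 were called lower and 9 higher, with a median of 0.10. ITGA11, the collagen receptor chain of fibroblasts, rose, with 3.05, 3.07 and 2.92 FPKM in siC and 5.13, 5.98 and 5.52 FPKM in siI1 (0.78), ITGB1, the common beta chain, changed by 0.43, and CD82, a tetraspanin, by 0.83. ITGA4, which binds fibronectin and VCAM1, fell (-0.52), as did MCAM, a melanoma cell adhesion molecule (-0.47). Of 34 TGF-beta and BMP genes 13 were called higher and 4 lower, with a median of 0.08, LTBP2, a latent TGF-beta binding protein, at 0.63 and FST, follistatin, at -0.83. Of 10 caveola genes 4 were called higher and EHD4 alone lower (-0.42), with a median of 0.08. CAV2 rose, with 8.01, 7.68 and 8.01 FPKM in siC and 11.2, 10.9 and 11.1 FPKM in siI1, by 0.47, which was less than in the mean of the other lines, with a difference of -0.81 ± 0.10 (adjusted p = 3.03e-05).

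Markers of other cell types moved with the groups, and their part in these results was not tested. Of 8 fibroblast markers 4 were tested, and their summed level was 16.3 to 16.6 FPKM in siC and 21.4 to 22.5 in siI1, with COL1A1, PDGFRA and FAP (0.23) higher and PRRX1 lower (-0.29). DCN had no read, and THY1 and LUM stayed under 0.2 FPKM in every library. Of 18 keratinocyte and epithelial markers 5 were tested, with sums of 28.4 to 31.2 and 32.2 to 36.7 FPKM. KRT14, a keratin of basal keratinocytes, measured 3.12, 3.89 and 2.77 FPKM in siC and 7.77, 8.98 and 8.77 FPKM in siI1 (1.27), TP63 changed by 0.60 and KRT8 by 0.24. Of 8 endothelial markers only ESAM was tested (0.58), with sums of 1.48 to 1.61 and 2.31 to 2.74 FPKM, and no immune marker reached the level that was tested (sums of 0.0971 to 0.233 and 0.217 to 0.427 FPKM).

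Of the genes that were higher than in each other line, the 8 furthest above their mean all rose in MV3, and SSH3, H6PD, CAMKK1, ACER3 and ZCCHC24 passed that test after rescaling to the same sum too. SSH3 (chr11:67303478-67312607, plus strand), of the slingshot phosphatases that activate cofilin, measured 2.55, 2.61 and 2.87 FPKM in siC and 4.68, 4.82 and 4.83 FPKM in siI1 and changed by -0.73 in A549, -0.46 in ES2 and -0.20 in PANC1. Its difference was 1.19 ± 0.12 (adjusted p = 3.02e-06). H6PD (chr1:9234774-9271337, plus strand), which makes NADPH inside the endoplasmic reticulum, measured 2.02, 1.93 and 2.31 FPKM in siC and 4.74, 4.90 and 4.70 FPKM in siI1 (1.03 ± 0.07, adjusted p = 0.000256), with a difference of 1.11 ± 0.08 (adjusted p = 1.78e-07). PLEKHG4, a guanine nucleotide exchange factor, measured 6.41, 6.42 and 6.28 FPKM in siC and 10.2, 10.2 and 9.60 FPKM in siI1 (0.61), against -0.03 in A549, -0.36 in ES2 and -0.88 in PANC1, a difference of 1.03 ± 0.12 (adjusted p = 1.65e-05).

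CAMKK1, a kinase that activates CaM kinases, changed by 0.66 (difference 0.98) and ACER3, the alkaline ceramidase, by 0.62 (difference 0.97). MYLIP, a ubiquitin ligase, measured 1.66, 1.998 and 1.73 FPKM in siC and 2.84, 2.26 and 2.64 FPKM in siI1 (0.42 ± 0.10, adjusted p = 0.022). Its call in MV3 was lost under 7 of the alternatives, while its difference from the other lines was 0.90 ± 0.11 (adjusted p = 4.07e-05). ZCCHC24, a zinc finger protein, measured 9.94, 10.0 and 10.2 FPKM in siC and 19.8, 21.0 and 21.6 FPKM in siI1 (1.01 ± 0.04, adjusted p = 7.73e-05), with a difference of 0.90 ± 0.14 (adjusted p = 0.000402). PIK3R3, another regulatory subunit of PI3 kinase, measured 0.789, 0.861 and 0.863 FPKM in siC and 2.54, 2.49 and 2.29 FPKM in siI1 (1.136 ± 0.09, adjusted p = 0.000349), with a difference of 0.89 ± 0.13 (adjusted p = 0.000276).

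Genes of the BCL2 family, which sets the threshold of apoptosis, moved in both directions. Of 17 BCL2 family genes 7 were called lower and 4 higher, with a median of -0.11. BMF, a killer protein of the family, measured 2.22, 2.18 and 2.35 FPKM in siC and 4.91, 5.90 and 5.29 FPKM in siI1 (1.09), and BCL2L1, the survival protein BCL-XL, measured 55.5, 55.0 and 49.0 FPKM in siC and 37.1, 40.3 and 38.3 FPKM in siI1 (-0.46). PMAIP1, noxa, changed by -0.33 and was lower than in each other line, by -0.52 ± 0.11 (adjusted p = 0.0047, and 0.301 after rescaling) against their mean.

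Lists of energy and lipid metabolism had medians near 0 in MV3, and many members lay below the mean of the other lines. Of 38 hypoxia and glycolysis genes 11 were called higher and 5 lower, with a median of -0.01, and 16 of 33 were lower than in the mean of the other lines. HK2, hexokinase 2, measured 8.14, 8.88 and 8.74 FPKM in siC and 5.62, 5.09 and 5.79 FPKM in siI1 (-0.60), PFKP, phosphofructokinase, 63.0, 64.8 and 58.6 FPKM in siC and 43.1, 44.7 and 44.1 FPKM in siI1 (-0.49), and BNIP3L, a mitophagy receptor, rose by 0.61. Of 32 genes of cholesterol and fatty acid synthesis and uptake 10 were called higher and 9 lower, with a median of -0.01, and 15 were lower than in the mean of the others. MSMO1 (0.62) and HMGCS1 (0.54) of the sterol pathway rose, and INSIG1 (-0.40), which restrains it, fell. Of 85 cytosolic ribosomal protein genes 18 were called lower and none higher, with a median of -0.08, and 48 of 84 were lower than in the mean of the others. These 3 counts against the mean rest on the scale of the libraries, since rescaling to the same sum left 1 of 33, 0 of 32 and 3 of 84 lower. Before rescaling, 1, 3 and 10 members of the 3 lists were lower than in each other line. In A549, ES2 and PANC1 the hypoxia median was 0.44, 0.02 and 0.05 and the cholesterol median -0.14, 0.21 and 0.54. The ribosomal median was 0.29, -0.01 and 0.48 there.

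Most proteasome subunits, chaperones and splicing factors were lower, by small amounts. In A549, ES2 and PANC1 the proteasome median was -0.05, -0.30 and -0.07 and the chaperone median -0.09, -0.35 and -0.01. The splicing factor median was -0.07, -0.18 and -0.36 there, and that of mitochondrial ribosomal proteins 0.01, -0.21 and 0.14. In each of these lists another line had a lower median than MV3. Of 39 proteasome subunits 25 were called lower and none higher, with a median of -0.26 and PSMB2 at -0.48. Of 30 chaperones 21 were called lower and none higher, with a median of -0.27, and HSPD1, the mitochondrial chaperonin, measured 159, 161 and 156 FPKM in siC and 89.0, 91.5 and 90.9 FPKM in siI1 (-0.81), while BAG2, a cochaperone, was also lower than in each other line (-0.72, difference -0.41, not called after rescaling to the same sum). Of 78 mitochondrial ribosomal proteins 36 were called lower and MRPS14 alone higher (0.48), with a median of -0.19. Of 32 SR and hnRNP splicing factors 22 were called lower and SRSF11 alone higher (0.27), with a median of -0.23. HNRNPF measured 109, 104 and 99.5 FPKM in siC and 54.4, 59.2 and 54.8 FPKM in siI1 (-0.88). Of 80 nuclear subunits of oxidative phosphorylation 15 were called lower, COX4I1 by -0.63, and 7 higher, with a median of -0.01.

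Messenger RNAs known as IGF2BP1 targets from earlier work were mostly lower. Of 14 earlier reported IGF2BP1 targets, 11 were called lower and HMGA2 alone higher (0.17), with a median of -0.42. LIN28B, a blocker of the microRNA let-7, measured 5.75, 5.93 and 6.72 FPKM in siC and 3.45, 3.21 and 3.78 FPKM in siI1 (-0.73). The 3 targets that the study followed up, in ES2 cells, and chose with these libraries in view, AURKA (-0.52), HDLBP and YWHAZ (-0.35), were all lower, which is not independent evidence. Of 19 m6A genes 9 were called lower, METTL3 by -0.37, and none higher, with a median of -0.12, and the list holds IGF2BP1 itself. Of 24 neural crest and neuronal genes 9 were called higher, with the granin SCG2 at 4.01, 3.26 and 3.96 FPKM in siC and 11.2, 11.1 and 10.0 FPKM in siI1 (1.41), and 3 lower, with a median of 0.13. Of 29 WNT genes 7 (24.1%) were called lower, among them DKK1 (-0.38), and 5 (17.2%) higher, with a median of -0.04. Of 26 interferon-stimulated genes 7 were called higher, among them IFIT1 (0.69), and 4 lower, among them OAS3 (-0.58), with a median of 0.10. Of 17 genes of antigen presentation 4 were called higher, among them HLA.E (0.39), that is HLA-E, and ERAP1 alone lower (-0.15), with a median of 0.05. Of 39 lysosomal genes 11 (28.2%) were called in each direction, with a median of -0.04. Of 291 zinc finger genes named ZNF 57 (19.6%) were called higher and 25 (8.59%) lower, with a median of 0.05. Over all protein-coding genes the shares were 19.6% higher and 26.8% lower, so the share of ZNF genes called higher was that of all genes.

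**Figure D5:**
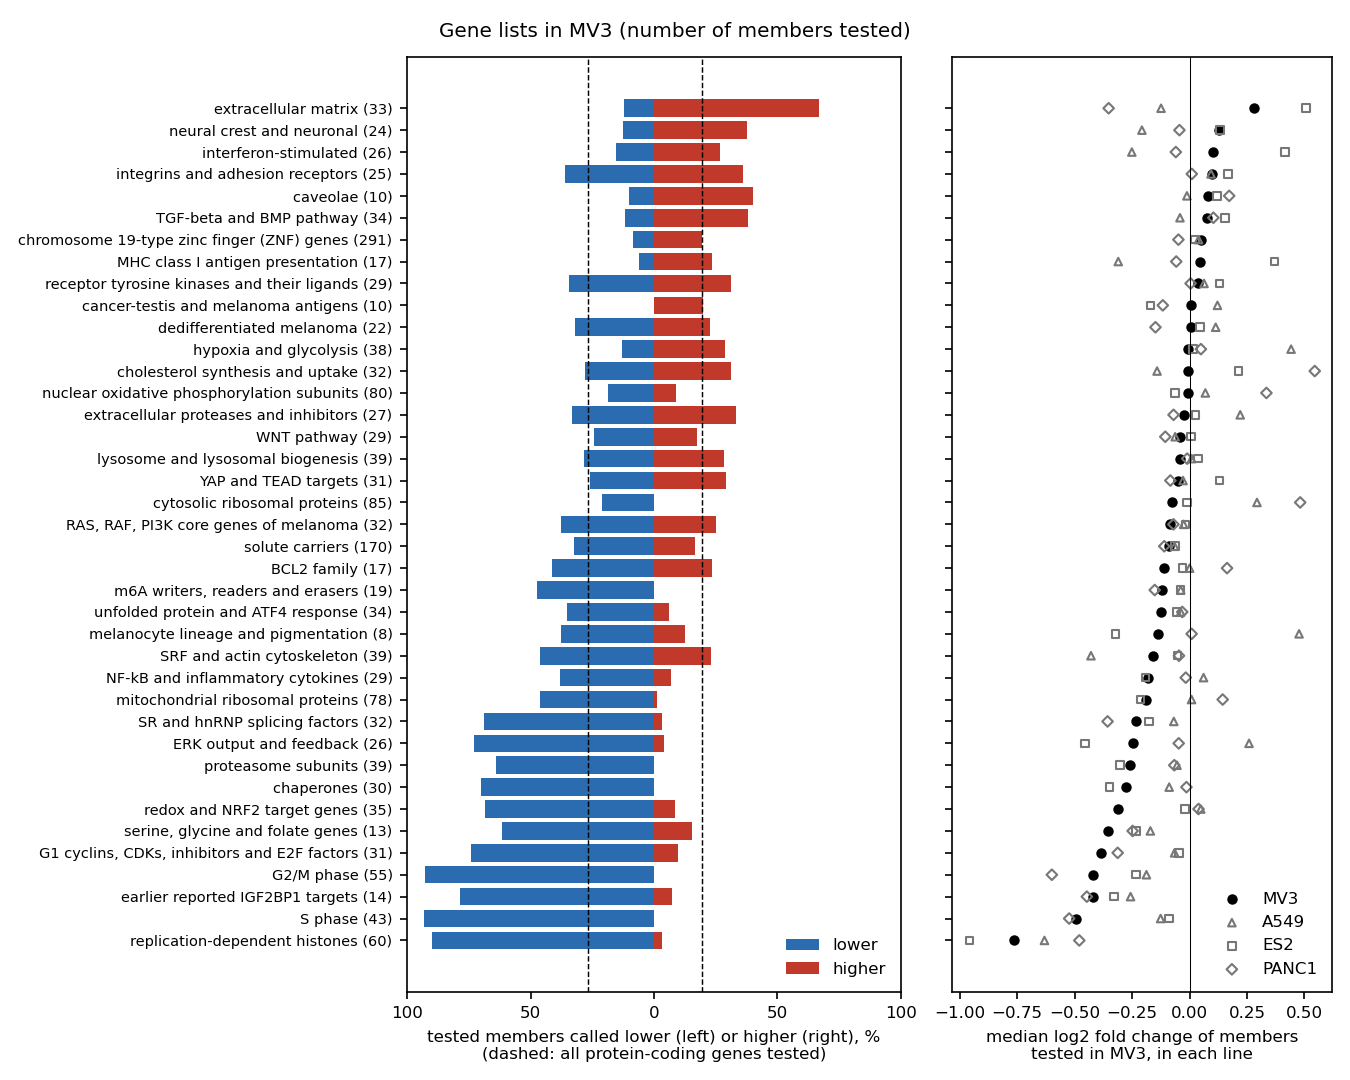
Left, the share of tested members called lower (blue, to the left) or higher (red, to the right) in MV3 for gene lists with at least 8 members tested, with dashed lines at 26.8% and 19.6%, the shares over all protein-coding genes; right, the median log2 fold change of the same members in MV3 (black points) and in the other lines (open symbols). The histone and S phase lists have the lowest medians in MV3 (-0.77 and -0.49) and the matrix list the highest (0.28).

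Among lincRNAs, long RNAs from between genes that code for no protein, more were higher than lower. Of 784 lincRNAs tested, 151 (19.3%) were called higher and 35 (4.46%) lower, with a median of 0.20. Protein-coding genes were called higher in 19.6% and lower in 26.8%. In the fifth of them with the lowest level the shares were 22.4% and 5.61%, with a median of 0.13, near those of the lincRNAs. The part of the level in the lincRNA counts was not tested. Leaving out 1 library at a time gave 86 to 154 higher calls, the lowest without siI1 replicate 1. Antisense genes had 115 calls higher and 30 lower of 801, with a median of 0.18, while processed pseudogenes had 56 higher and 86 lower of 1207, snRNAs 7 higher and 16 lower of 312 and snoRNAs 2 higher and 22 lower of 197. The kit marked strand, but whether the counting used it is not given in the sources used here, so reads of overlapping genes cannot be told apart. AC005261.2 (chr19:57304305-57308562, plus strand) measured 21.5, 21.7 and 21.8 FPKM in siC and 11.9, 11.02 and 10.8 FPKM in siI1 (-0.92 ± 0.04, adjusted p = 0.000109), AC125807.2 changed by -0.91, LINC00704 by -0.80 and FAM27C, on 37 to 69 reads a library, by -0.997. Those that rose most rested on few reads: AL132711.1 (1.22, 2 to 29 reads), AP006621.2 (1.35, 5 to 33), AC005256.1 (1.38, 7 to 42) and AC011445.2 (1.51, 1 to 19).

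The longest annotated 3′ untranslated region had a median of 1524 bases among genes called lower, 1493 among genes called higher and 1510 among genes not called. Its AU share was 58.45%, 55.64% and 58.06%, and the listed gene length 4849, 5403 and 5092 bases. The median control level was 14.0 FPKM among genes called lower against 5.26 among genes called higher, and the part of the level in these medians was not tested.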

How the data were processed

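Total RNA of 6 MV3 libraries, 3 siC and 3 siI1, was depleted of ribosomal RNA and sequenced in pairs by the authors, who state 3 biological replicates. Per the submitters' processing notes the tools were cutadapt 1.14, HISAT2 2.1.0, SAMtools 1.5, featureCounts 1.5.3 and edgeR 3.30.3, with the hg38 genome and an Ensembl annotation. The strand setting of the counting is not given in the sources used here, so reads of a gene and an antisense or overlapping partner cannot be told apart, and near-identical copies may share reads. The authors deposited 1 table a line with FPKM per library, a gene length, and their own fold changes, p-values and FDR, which were not used. All FPKM values were whole multiples of 1 read within a tolerance of 0.05, which gave the reads per library. The 37 mitochondrial genes had no read in MV3.

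Genes averaging 0.5 FPKM or more were compared on log2(FPKM + 0.5) with limma 3.58.1 (R 4.3.3, empirical Bayes with trend, two-sided). P-values were adjusted by Benjamini and Hochberg's method across every gene tested, at a threshold of 0.05. Knockdown effects were compared between lines in 1 limma fit over the means of 8 groups of 24 libraries, within tables only. Alternatives were a pseudocount of 0.1 or 1, no filter or a minimum of 1 FPKM, libraries rescaled to the same sum, limma's voom on the recovered reads, the replicate number as a block, separate standard errors, leaving out each library and, added after the data were seen, libraries thinned to equal reads. The steps were tested on simulated data with known changes. Summaries used Python 3.11.15, numpy 2.4.6, pandas 2.3.3 and matplotlib 3.10.9.

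The members, gene lists and tests were chosen with earlier results of these data known. The redox and serine lists and the antioxidant response motif were added after values had been seen. Genes were named as IGF2BP family members, as the 12 lowest and 12 highest fold changes among called protein-coding genes of at least 1 FPKM whose groups did not overlap, as the 8 lowest and 8 highest differences among genes called against each other line, as the largest changes of each list (up to 6) or members needed for their role, and as the 4 lowest and 4 highest called lincRNAs; further members of lists were picked after their values were seen. Gene coordinates are hg38 gene bounds from GENCODE. Same-numbered siC and siI1 libraries did not deviate together, and no 2 libraries of a group agreed within sampling noise. Some genes and 1 gene list are not reported here.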

Additional observations from a re-analysis of the deposited data

Results flagged for a closer look

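For these genes the knockdown effect in MV3 differed from the mean effect in A549, ES2 and PANC1 by limma's test of the difference (adjusted p under 0.05), and the values are differences of log2 fold changes, MV3 minus the mean of the other lines. Below the mean and below each line lay SLC7A11 (-1.27), PLAU (-1.14), CXCL1 (-1.07), GPRC5A (-1.03), AKAP12 (-0.93), SQSTM1 (-0.92), PIR (-0.87), CHAC2 (-0.87), PSAT1 (-0.78), DTL (-0.72), CYR61 (-0.71), NCR3LG1 (-0.70), FGF2 (-0.70), MTHFD2 (-0.67), PGD (-0.66), PMAIP1 (-0.52) and BAG2 (-0.41). Below the mean but not below each line lay CAV2 (-0.81) and ATF4 (-0.41). Above the mean and above each line lay SSH3 (1.19), H6PD (1.11), PLEKHG4 (1.03), CAMKK1 (0.98), ACER3 (0.97), MYLIP (0.90), ZCCHC24 (0.90), PIK3R3 (0.89) and PIK3R1 (0.60). Above the mean but not above each line lay ZSCAN31 (1.22), TP53INP1 (1.20), SPARC (0.73) and YAP1 (0.42). After rescaling all libraries to the same sum the difference was no longer called for ATF4, BAG2, CHAC2, NCR3LG1 and PMAIP1. Of the genes listed as below each line only CXCL1 and SQSTM1 kept that status after rescaling, and of those above each line SSH3, H6PD, CAMKK1, ACER3 and ZCCHC24 kept it.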

How the results depend on the processing

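The counts of protein-coding genes called in MV3 stayed within 1.5 times of their values under every alternative run, and IGF2BP1 was called lower in each. The counts against the other lines rested on scale and error model. Genes lower than the mean of the other lines (798) numbered 54 after rescaling to the same sum, 1286 with voom, 1378 with separate standard errors and 506 to 716 without 1 library, lowest without siC replicate 1. Genes higher than the mean (595) numbered 969 after rescaling, 1191 with voom, 374 with the replicate block, 1118 with separate standard errors and 371 to 445 without 1 library, with 381 and 371 without siC replicates 1 and 2 and 379 and 373 without siI1 replicates 2 and 3. Genes lower than each line (102) numbered 2 after rescaling, 159 with voom and 59 to 91 without 1 library, lowest without siC replicate 1. Genes higher than each line (62) numbered 96 with no filter, 24 after rescaling, 117 with voom, 36 with the replicate block and 36 to 43 without 1 library, with 39 and 36 without siC replicates 1 and 2 and 38 and 39 without siI1 replicates 2 and 3. LincRNAs called higher (151) numbered 86 to 154 without 1 library, with 95 without siC replicate 2 and 86, 98 and 88 without siI1 replicates 1, 2 and 3. The cause of these shifts was not tested.

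With the replicate number as a block, 2421 protein-coding genes were lower and 1607 higher, and IGF2BP1 changed by -1.52 (limma, adjusted p = 0.00436). Same-numbered libraries had correlations of -0.02, 0.02 and -0.06 in their deviations, and differently numbered ones -0.06 to 0.07. With 3 libraries a group this cannot show whether same-numbered libraries were prepared together. After rescaling, 81.3% of the genes called lower and 69.6% of those called higher were called again, and the calls of IGF2BP3, MYLIP, FAP, GPR143, AREG, CDKN1B, FN1, NFE2L2, SRSF11, TFAP2A, DUSP6, PDGFC, HMGA2, MTHFD2L, ERAP1, KRT8, PRAME and HLA.E were lost, while the differences of CCDC6 (0.55) and CBX6 (0.49) from the other lines became called. The calls of KRT8, NFE2L2, ERAP1, PRAME, NQO1, AREG, TFAP2A and FTL were lost without 5 or 6 of the 6 libraries in turn.

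Among lists, the count of ribosomal proteins called lower (18) was 8 without siC replicate 2 and 7 with the replicate block, and that of oxidative phosphorylation subunits (15) was 5 without siC replicate 1 or 2. The count of ZNF genes called higher (57) was 34 without siC replicate 2, of RAS, RAF and PI3K genes (8) 4 without siI1 replicate 3, and of m6A genes called lower (9) 3 without siI1 replicate 2. Lysosomal genes called lower (11) numbered 4 without siC replicate 2 and those called higher (11) 5 without siI1 replicate 2. Small counts of calls and of differences from the other lines moved likewise in further lists. Every siI1 library was deeper than every siC library, and genes of few reads are the least certain.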
